A study of Papio hamadryas with 17 samples.

Results

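The genes described here encode enzymes of glycogen breakdown, glycolysis and creatine phosphate metabolism that exist as muscle and non-muscle isoforms: ENO3, ENO1, LDHA, LDHB, ALDOA, PYGM, PFKM, PGAM2 and CKM. They were taken as the transcripts whose deposited name begins with one of these 9 symbols. That found 7 of the 9 genes with 20 transcripts in the female table, among 13851 gene symbols and 26644 transcripts, and 5 of the 9 with 11 transcripts in the male table as held here, among 9819 symbols and 17119 transcripts. ENO3, ENO1, LDHB, ALDOA and CKM were in both tables, and PFKM and PGAM2 had values in females only. PYGM was added because its name carries an identifier before the symbol; it too had values in females only. No row of the tables as held here carried the symbol LDHA. A gene named LOC103877626, whose product text is the lactate dehydrogenase A chain, was looked at in its place after its values were seen. Whether it is LDHA was not determined.

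The libraries came from kidney cortex of baboons, labelled Papio hamadryas, of which 8 were females aged 15 to 19 and 9 were males aged 6 to 13, with no unit given for age. All had eaten a low salt control chow throughout life and received no treatment. The cortex was sampled by biopsy under ultrasound guidance, in animals sedated with ketamine and kept under isoflurane, and frozen in liquid nitrogen. Each animal gave 1 stranded mRNA library, and the study compared gene networks between the sexes.

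Enolase, aldolase, phosphoglycerate mutase, phosphofructokinase and lactate dehydrogenase carry out steps of the pathway from glucose to lactate, and glycogen phosphorylase feeds that pathway from stored glycogen. Several of these enzymes have one gene used mainly in skeletal muscle and another used in most other tissues, and creatine kinase, which buffers ATP in contracting muscle, has a muscle and a brain form. In the kidney, the cortical proximal tubule makes glucose rather than breaking it down, whereas more distal segments are glycolytic.

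Values are the deposited signal per transcript minus its offset of 1, summed per gene. Signal is scaled between libraries and is not corrected for gene length here, so levels and ratios are compared between libraries and not between genes. Female 1, female 2 and male 6 are called muscle-rich below because skeletal muscle genes were high in them. Of 25 such genes, the 5 in both tables (ACTA1, ACTN2, ACTN3, CASQ1 and ATP2A1) summed to between 64685 and 125420 in these 3 libraries and to between 0.931 and 13.2 in the other 14. The summed signal of 7 proximal tubule genes ran the other way, at 5.08 to 57.4 in the 3 and 51.3 to 4067 in the 14. In this sum male 6 lay above female 3. The thick limb gene UMOD was at 20.8, 12.3 and 939 in female 1, female 2 and male 6, against 1669 to 11030 in the 14. The collecting duct gene AQP2 was at 2.13, 3.16 and 42.6 in the same order, against 45.2 to 376. In these kidney genes male 6 lay nearer to the 14 than female 1 and female 2 did. All 3 libraries thus go against their label of kidney cortex in the muscle genes and lay below the 14 in UMOD and AQP2. Because they were picked on muscle genes, and the genes described here are largely muscle genes, every comparison of the 3 with the 14 is a description with no test. The step between low values, taken as the size of about 1 read, differed 6.01-fold between libraries. The smallest step over each library's own step was 0.224, 0.168 and 0.180 in female 1, female 2 and male 6. It was as low in female 6 (0.166), a library that was not muscle-rich. Signal summed over the transcripts in both tables was 540860, 670142 and 540174 in the 3 and 292563 in female 6. Because these sums differ, the step ratio is not a measure of depth alone.

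ENO3 encodes the muscle-type beta enolase, and ENO1 the alpha enolase found in most tissues. ENO3 signal was 9495 in female 1, 13573 in female 2 and 9747 in male 6. In the other 14 libraries it ran from 1.04 in female 5 through a median of 2.60 to 9.05 in female 3. The lowest muscle-rich library was 1049-fold above the highest of the 14, so the groups did not overlap. ENO3 was still counted in every one of the 14, at 10.0 steps in female 6 and up to 161.0 steps in female 3. ENO1 lay lower in these libraries, at a signal of 124.0, 114.0 and 157.0 in female 1, female 2 and male 6. In the 14 it ran from 219.5 in female 6 through a median of 361.5 to 515.1 in female 3, again without overlap, and the lowest of the 14 was 1.40-fold above the highest muscle-rich library. The ENO1 median of the 14 was 2.92-fold that of the 3. In bulk tissue, fewer cells of a type and less RNA per cell cannot be told apart.

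**Figure D1:**
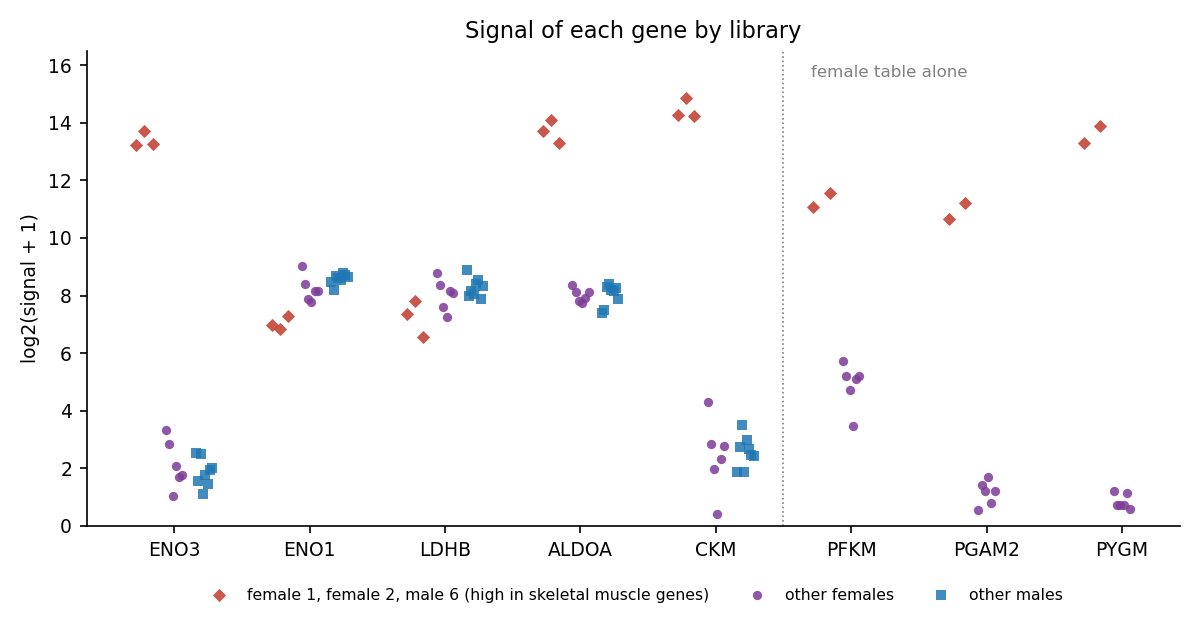
Signal of 8 of the 9 genes in each library, as log2(signal + 1), with 1 point per animal; diamonds are the 3 muscle-rich libraries, circles the other females and squares the other males, and the genes right of the dotted line had values in females only. ENO3, ALDOA, CKM, PFKM, PGAM2 and PYGM lie higher in the diamonds without overlap, ENO1 lies lower without overlap, and LDHB overlaps.

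The ENO3 to ENO1 ratio, taken as a log2 ratio of signal + 1, was 6.25 in female 1, 6.88 in female 2 and 5.95 in male 6. In the other 14 it ran from -7.52 in male 4 through a median of -6.55 to -5.56 in female 4. The gap between the lowest muscle-rich library and the highest of the 14 was 11.51 on the log2 scale. Since ENO3 was close to the added 1 in the 14, their ratios depend on that constant.

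Aldolase splits fructose bisphosphate, and ALDOA is the form of muscle and most other tissues. ALDOA signal was 13460 in female 1, 17493 in female 2 and 10010 in male 6. The other 14 ran from 168.4 in male 1 through a median of 280.6 to 334.6 in male 4, which left a 29.9-fold gap and no overlap. ALDOA was thus also present in all 14, in both sexes.

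CKM, the muscle creatine kinase, was at a signal of 19905 in female 1, 29472 in female 2 and 19110 in male 6. The other 14 ran from 0.318 in female 6, 0.997 of a step, through a median of 4.995 to 18.6 in female 3, which is 331 steps. The gap was 1027-fold. CKB, the brain and kidney form, was at 6.63, 4.42 and 20.5 in the 3 libraries and at 116 to 361 in the 14, with a median of 180. Neither gene overlapped between the sets, CKM lying higher and CKB lower in the muscle-rich libraries, and the log2 ratio of CKM to CKB was 11.35, 12.41 and 9.79 in the 3 against -6.55 to -4.04 in the 14.

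Values for glycogen phosphorylase, phosphofructokinase and phosphoglycerate mutase came from the female table, so 2 muscle-rich females stand beside 6 others. PYGM, the muscle glycogen phosphorylase whose loss causes McArdle disease, was at 10078 in female 1 and 15167 in female 2, against 0.497 to 1.29 in the 6, with a median of 0.654. Its gap of 7793-fold was the widest among the genes described here, but it divides by a signal close to 0. In female 6 PYGM was at 0.636, below 3 steps (0.958), so no rank is read from the fold. Transcripts in both tables all had a mean of at least 2 over the 17 libraries, offset included. A gene this low in the 6 may therefore be held only because of the muscle-rich libraries. PFKM, the muscle subunit of the main control enzyme of glycolysis, was at 2141 and 2984 against 10.1 in female 6, a median of 34.5, and 51.6 in female 3. The PFKM gap was 41.5-fold, close to the 41.4-fold of ALDOA in the same females. PGAM2, the muscle phosphoglycerate mutase, was at 1625 and 2350 against 0.450 to 2.23, with a median of 1.33 and a gap of 730-fold. None of these 3 genes overlapped between the 2 and the 6.

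The partner isoforms of these enzymes differed less between the sets. PFKL, the liver subunit, was at 34.8, 34.4 and 26.1 in female 1, female 2 and male 6 and at 36.8 to 91.3 in the 14, so the sets lay side by side with hardly a gap. PFKP, the platelet subunit, overlapped, at 8.27 or less in the 2 muscle-rich females and 6.02 to 39.5 in the 6. PGAM1, the mutase of most tissues, was at 40.2, 28.1 and 47.0 in the 3 and at 80.4 to 154 in the 14, without overlap. PYGL, the liver phosphorylase, overlapped, whereas PYGB, the brain form, was at 28.9 and 22.1 in the 2 females and at 39.5 to 76.7 in the 6. The third enolase gene, ENO2, the neuronal form, overlapped over the 17 libraries in the 2 of its 3 transcripts that both tables hold. With all 3 transcripts, in females, ENO2 was at 5.92 and 3.79 in the muscle-rich libraries and at 9.09 to 18.2 in the 6, without overlap. In log2 ratios, PFKM to PFKL was 5.90 and 6.40 against -1.99 to -0.16. PGAM2 to PGAM1 was 5.30 and 6.34 against -6.06 to -4.68, and PYGM to PYGL was 10.24 and 11.95 against -1.997 to -1.21.

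**Figure D2:**
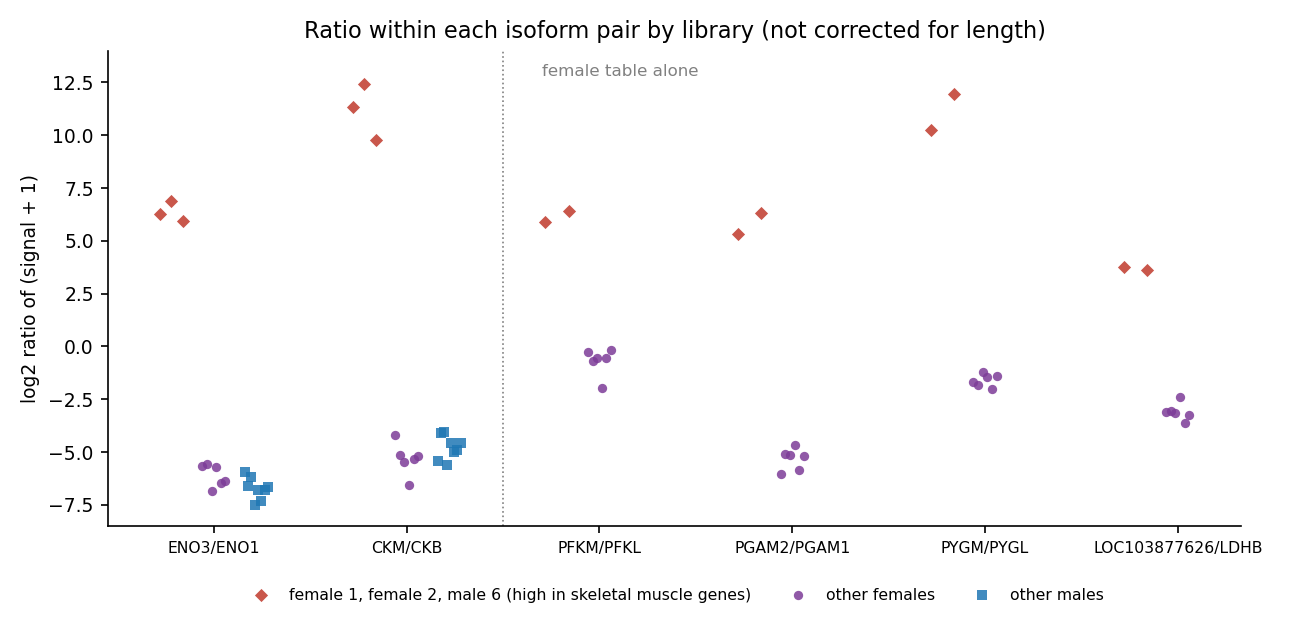
Log2 ratio of signal + 1 within each of 6 pairs, 1 point per library, with the pairs right of the dotted line from females only. Within each pair the muscle-rich libraries (diamonds) lie above all other libraries, with the smallest gap, 6.05, for LOC103877626 to LDHB; where a pair lies on the axis depends on gene length and is not read.

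Lactate dehydrogenase is a tetramer of A and B subunits, and the B subunit predominates in heart and in oxidative tissue. LDHB signal was 161.7 in female 1, 221.0 in female 2 and 92.3 in male 6, counting the 1 of its 2 transcripts that both tables hold. The other 14 ran from 150.1 in female 6 through a median of 285.0 to 471.4 in male 1. The sets overlapped, because female 1 and female 2 lay within the range of the 14 and only male 6 lay below it. LDHB was the 1 gene described here that overlapped. LOC103877626 was at 2240 and 2764 in the 2 muscle-rich females and at 20.7 to 51.7 in the 6, with a median of 27.6 and a gap of 43.3-fold. Its log2 ratio to LDHB was 3.78 and 3.63 against -3.60 to -2.41. A pair of further genes with product texts of an A chain-like protein, LOC101013068 and LOC101016963, were at 130 to 140 and 102 to 118 in the 2 females. In the 6 they were at 0.318 to 3.46 and 0.704 to 2.71. How reads were divided among these 3 loci is not given in the sources used here.

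By count, 3 of the 5 genes held in both tables lay above the other 14 in all 3 muscle-rich libraries and 1 lay below, with no overlap. Over all 9819 genes in both tables the same patterns held for 15.7% and 15.4%. Those 9819 genes included 5 of the 25 skeletal muscle genes, whereas the females had values for 22 of the 25. Both shares thus come from a set that lacks most of these muscle genes, and the effect of that on them was not tested. Among the females 6 of 8 genes lay above and 1 below, beside 44.6% and 18.2% of 13851 genes. The muscle-rich libraries were chosen for muscle genes, so nothing is read from these counts. The 5 genes together took 7.98%, 9.08% and 7.24% of the signal shared by both tables in female 1, female 2 and male 6. In the other 14 they took 0.200% to 0.506%, with a median of 0.284%.

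Transcript values separated 1 form of ENO1 from the rest of the gene. The gene lies on the minus strand of sequence NC_018152.2, from 7711667 to 7729487, and has 4 transcripts in the tables, all annotated as protein coding. The transcript XM_021935729.1 was at 21.7 in female 1, 34.3 in female 2 and 24.7 in male 6, and at 0.00703 or less in each of the 14. In steps this was 83.7 to 108 in the muscle-rich libraries and at most 0.103 in the 14. It made up 17.5%, 30.1% and 15.7% of ENO1 signal in female 1, female 2 and male 6. The main ENO1 transcript, XM_009187240.3, was at 42.1 to 102 in the 3 and at 164 to 380 in the 14. The other transcripts were lower in the 3 as well, XM_021935733.1 at 15.8 to 35.4 against 48.1 to 115 and XM_003891065.4 at 2.13 or less against 2.94 to 25.8. XM_021935729.1 and XM_003891065.4 have the same deposited start and end. Without XM_021935729.1, ENO1 was at 102, 79.6 and 132 in the 3 libraries, and the gap to the lowest of the 14 widened from 1.40-fold to 1.66-fold. ENO1 and ENO3 are related in sequence, and how reads were divided between them is not given in the sources used here.

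ENO3, on the plus strand of NC_018167.2 from 4661834 to 4668389, also has 4 transcripts. XM_009189436.2 made up 73.9% to 75.03% of its signal in the muscle-rich libraries, a narrow range. In the 14 the same share ran from 1.19% to 97.1% with a median of 76.7% on a gene total of 9.05 or less. PFKM has 7 transcripts on the plus strand of NC_018162.2, from 44126091 to 44171733. XM_003906276.2 made up 23.0% and 22.1% of PFKM signal in female 1 and female 2. It made up 42.6% to 53.9% in females 3, 4, 5, 7 and 8, but 3.23% in female 6, where the whole gene was at 10.1. The share of XM_003906278.2, at 34.8% and 32.9%, lay within the 17.5% to 42.7% of the 6. XM_003906276.2 begins at 44145283 and XM_003906278.2 at 44148700, and both end with the gene. ALDOA, CKM, PGAM2 and PYGM had a single transcript each in the tables.

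**Figure D3:**
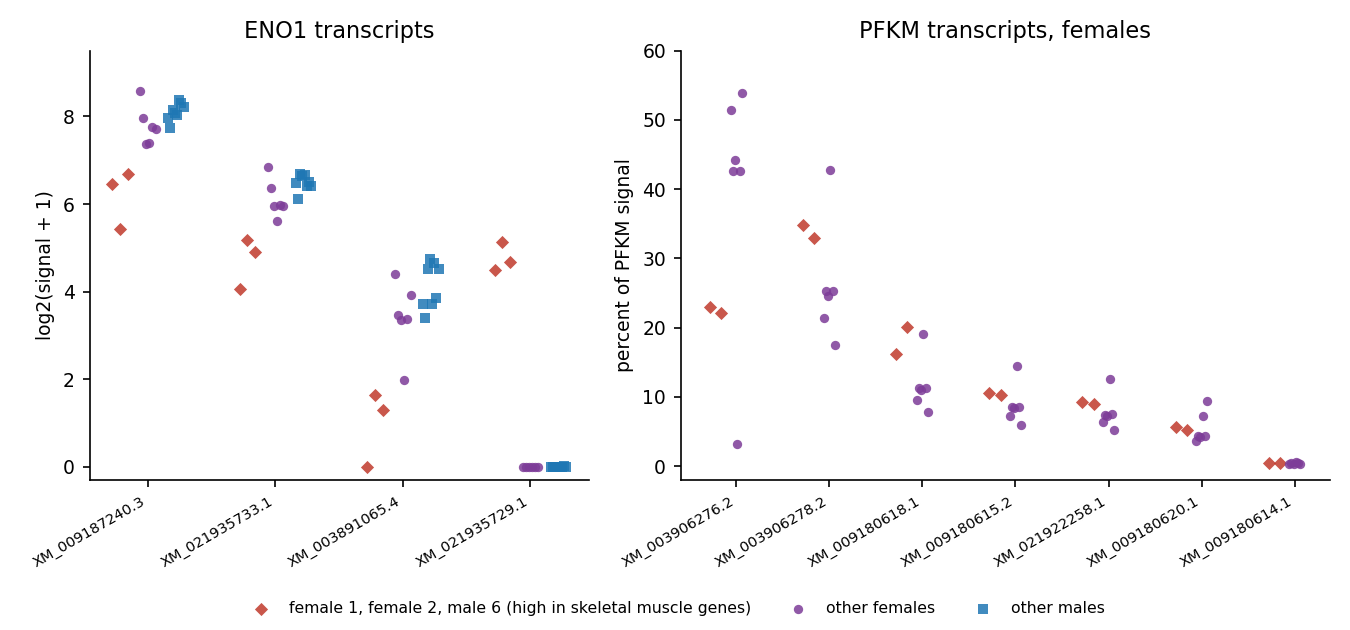
Left, signal of the 4 ENO1 transcripts in 17 libraries as log2(signal + 1); right, the percentage of PFKM signal in each of its 7 transcripts in 8 females. XM_021935729.1 of ENO1 is at 21.7 to 34.3 in the muscle-rich libraries and near 0 elsewhere, and XM_003906276.2 of PFKM is at 22.1% and 23.0% against 42.6% or more in 5 of the 6 other females.

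A wider list of 43 genes of glycolysis, glycogen and creatine phosphate metabolism was counted beside these genes. The female table held 38 of them, of which 20 lay above the 6 other females in both muscle-rich females, 10 lay below and 8 overlapped, beside 44.6% above and 18.2% below over all genes. Both tables held 29, of which 21 had every transcript in both. Of the 29, 10 lay above the 14, 8 below and 11 overlapped. The shares over all genes in both tables, a set lacking most of the 25 skeletal muscle genes, were 15.7% and 15.4%. Nothing is read from these counts either. Those above included GYS1, the muscle glycogen synthase, at 556 to 631 against 17.2 to 41.5. GAPDH, at 8708 to 10608 against 195 to 715, and FBP2, the muscle fructose bisphosphatase, at 318 to 541 against 0.826 to 6.34, were also above. CKMT2, the sarcomeric mitochondrial creatine kinase, was at 347 to 495 against 2.65 or less. Those below included FBP1, the liver and kidney fructose bisphosphatase, at 4.40 or less against 13.0 to 368. FBP2 thus lay higher and FBP1 lower in the muscle-rich libraries. These 5 genes were named after their values were seen. PKM, pyruvate kinase, shows what the male table leaves out. In the 2 of its 6 transcripts in both tables it overlapped, at 76.4 to 198 against 146 to 398, whereas all 6 transcripts in females gave 4191 and 6475 against 158 to 459.

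Between the sexes, none of the 5 genes passed limma's moderated test over all 9415 genes (Benjamini-Hochberg adjusted p under 0.05), and none had an unadjusted p under 0.05. Over all genes 13.6% passed, with 0.372% higher on the female side and 13.2% on the male side, and the median difference of all genes was -0.28 on the log2 scale, female minus male. ENO3 differed by 1.84 (SE 2.02, limma adjusted p = 0.594) and CKM by 1.60 (SE 2.14, limma adjusted p = 0.670), with 2 muscle-rich libraries among the females and 1 among the males. ALDOA differed by 0.89 (SE 1.02) with a 95% interval from -1.25 to 3.02. ENO1 differed by -0.53 (SE 0.29, limma adjusted p = 0.228) and LDHB by -0.16 (SE 0.29, limma adjusted p = 0.755). Library name series followed sex, every female was older than every male, and each sex has its own table, so sex, age and library series cannot be told apart.

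Without the 3 muscle-rich libraries the intervals narrowed and again 0 of 5 genes passed in limma, 0 of them also at an unadjusted p under 0.05, while 38.6% of all genes did (2.24% higher in females, 36.3% in males). ENO3 signal averaged 4.03 ± 3.02 (SD, n = 6) over the females beside 2.80 ± 1.30 (SD, n = 8) over the males, which differ by 0.27 in log2 (95% interval -0.42 to 0.96). For ENO1 the female mean was 313 ± 108 (SD, n = 6) and the male mean 384 ± 46.3 (SD, n = 8), differing by -0.34 in log2 (95% interval -0.73 to 0.04). That difference lay within 0.01 of the median of all genes in these 14 libraries, -0.35. LDHB differed by -0.24 (95% interval -0.72 to 0.24) and CKM by -0.14 (95% interval -1.07 to 0.79). ALDOA had almost equal means, 260 ± 42.9 (SD, n = 6) for females beside 265 ± 62.0 (SD, n = 8) for males (log2 difference -0.00027, 95% interval -0.38 to 0.38). Scaling each of the 14 libraries to its median, which moved the median of all genes to 0.03, put ALDOA at 0.46 (limma adjusted p = 0.0429) among 29.7% of genes that passed (14.7% higher in females, 15% in males). It also turned ENO1 to 0.12 and LDHB to 0.22, neither of which passed. Leaving female 3 out of the 14 put ENO1 past the threshold, at -0.50 (limma adjusted p = 0.0131). In that fit 3918 of all 9415 genes passed, 3719 of them higher in males, and the median of all genes was -0.40.

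**Figure D4:**
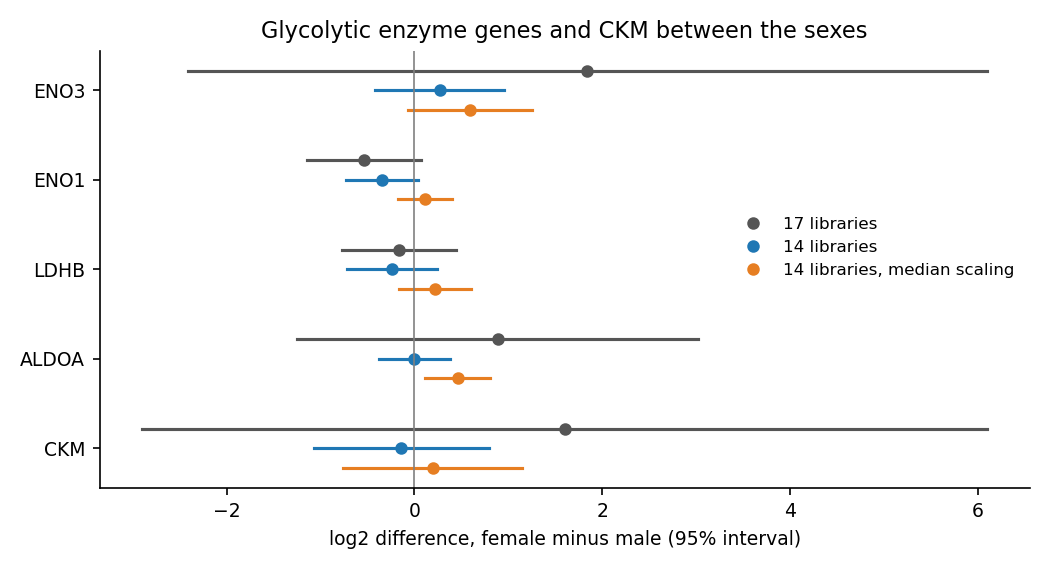
Log2 difference in signal, female minus male, of the 5 genes in both tables, with limma's 95% interval, in all 17 libraries, in 14 without the muscle-rich libraries, and in the 14 after median scaling. The intervals of ENO3, ALDOA and CKM are wide over 17 libraries and narrow over 14, and only ALDOA after median scaling, at 0.46, has an interval that leaves out 0.

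Ratios within a library do not depend on its scaling apart from the added 1, so isoform pairs were compared between the sexes by exact two-sided permutation tests, with p-values adjusted over 3 pairs. Over 17 libraries the female minus male difference in log2 ratio was 2.37 for ENO3 to ENO1 (exact permutation p = 0.211, adjusted 0.316) and 2.15 for CKM to CKB (exact permutation p = 0.461, adjusted 0.461). Neither passed. Leaving out male 6 alone put ENO3 to ENO1 at 3.78 (adjusted exact permutation p = 0.0191), with both muscle-rich females still in.

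Over the 14 libraries ENO3 to ENO1 differed by 0.61, with a female mean of -6.11 ± 0.529 (SD, n = 6) beside a male mean of -6.73 ± 0.525 (SD, n = 8) (exact permutation p = 0.0536, adjusted 0.0804). It passed when female 5 was left out, at 0.76 (adjusted exact permutation p = 0.0350), and when male 1 was left out, at 0.73 (adjusted exact permutation p = 0.0411). Against the 5 males of the first library name series the difference was 0.50 (adjusted exact permutation p = 0.251). Against the 3 males of the second it was 0.81 (adjusted exact permutation p = 0.0714). ENO3 was close to the added 1 in the 14, so these ratios are not free of scaling. Other added constants were tried over the 17 libraries alone. In limma over the 14, ENO3 differed by 0.27 and ENO1 by -0.34 as deposited, and by 0.59 and 0.12 after median scaling. CKM to CKB differed by -0.53 over the 14 (exact permutation p = 0.150, adjusted 0.150), the opposite sign to that over 17. The 7 proximal tubule genes also differed in level, at 51.3 to 1780 with a median of 722 in the 6 females and 1502 to 4067 with a median of 2664 in the 8 males. The part of tubule content in these ratios was not tested.

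Of the 43 pathway genes, 28 were tested between the sexes, each summed over the transcripts in both tables, which for some are only part of the gene. Over 17 libraries 3 passed in limma, all higher in males, beside 13.6% of all genes (13.2% higher in males), and the list median was -0.19 beside -0.28 for all genes. The count was 1 without female 5, 6 or 8 or without male 4, 5, 7 or 9, where 658 to 1040 of all 9415 genes passed. It was 10, of which 1 was higher in females, without male 6. There 2334 of all genes passed, 80 higher in females and 2254 in males. The 3 over 17 libraries were PKLR, PFKFB2 and PHKB. PKLR, the liver and kidney pyruvate kinase, was at -2.42 (limma adjusted p = 0.00632). PFKFB2, a regulator of fructose 2,6-bisphosphate, was at -0.83 (limma adjusted p = 0.0353). PHKB, a subunit of phosphorylase kinase held in 2 of 7 transcripts, was at -0.63 (limma adjusted p = 0.0310). Only PKLR passed after median scaling of the 17, where 3.99% of all genes passed (1.44% higher in females, 2.55% in males). Over the 14 libraries 14 passed, 13 of them higher in males and 1 higher in females, beside 38.6% of all genes (36.3% and 2.24%). After median scaling 11 of the 28 passed, 5 higher in males and 6 higher in females, beside 29.7% of all genes (15% and 14.7%). PKLR, GBE1, the glycogen branching enzyme, and PFKFB2 were higher in males under both scalings of the 14. Their log2 differences as deposited were -2.52, -1.38 and -0.91, and the highest limma adjusted p among them was 0.00109. ENO2, in the 2 of its 3 transcripts that both tables hold, was higher in females under both scalings, by 1.08 as deposited (limma adjusted p = 0.000996).

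Among the 14 libraries, with each sex centred on its own mean, the log2 signal of 4708 genes was compared with that of ENO1. The closest was PKM, in the 2 of its 6 transcripts that both tables hold (Pearson r = 0.976, Spearman rho = 0.921). Next were the lysosomal gene CLN3 (r = 0.937, rho = 0.895) and EIF4A3 of the exon junction complex (r = 0.937, rho = 0.916). Without female 3 and female 6, the libraries farthest from the median, these r were 0.928, 0.890 and 0.922. The closest to LDHB were LOC101009545 (r = 0.941, rho = 0.916), the kininogen gene KNG1 (r = 0.939, rho = 0.890) and the heat shock gene HSPA2 (r = 0.937, rho = 0.925), with r of 0.904, 0.872 and 0.876 without the same libraries. ENO1 and LDHB followed each other less closely (r = 0.703). These genes were picked as the highest of many, and the libraries share differences in depth and scaling, so the values are a description and carry no p.

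In the authors' deposited table of females, which assigns each transcript to a co-expression module, 16 of the 21 transcripts of these genes, PYGM included, were in the module named blue, which held 41.7% of all 26644 transcripts. The 16 were all those of ENO3, PFKM, PGAM2, CKM, ALDOA and PYGM together with XM_021935729.1 of ENO1. The other 3 ENO1 transcripts and both LDHB transcripts were in the module named tan, with 12.2% of all. The authors' deposited table of males, as held here, placed 7 of 11 in turquoise, a module with 28.5% of the rows held and within which the table ends. There, 2 ENO1 transcripts were in black, 1 in blue and that of LDHB in purple. Modules were built per sex and their names do not correspond between the tables.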

How the data were processed

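The authors deposited a table for each sex holding 1 signal per transcript and library. Judged from the values, signal is a read abundance scaled between libraries to which 1 was added. Per the submitters' processing notes Partek was used. The sources used here do not name an aligner, a quantification method, the scaling or a build. The male table as held here ends within a row after 17119 complete rows, and the rest was not analysed here. Tables were joined by transcript identifier. Over the joined transcripts the mean of the 17 libraries never fell below 2, whereas 1435 female means and 721 male means did, so the tables were treated as scaled together, and a difference in scale between them cannot be told apart from sex.

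The offset was subtracted and signal was summed per gene. Genes reaching a signal of 1 in 8 or more libraries were tested with limma 3.58.1 (R 4.3.3) on log2(signal + 1), modelling the mean-variance trend, with p-values adjusted by Benjamini-Hochberg and a threshold of 0.05. Such differences understate the change of low genes. Isoform ratios were tested by exact permutation with numpy 2.4.6 (Python 3.11.15), and Spearman correlations used scipy 1.17.1. P-values measure the spread between animals, 1 library each. The step between low values was estimated from gene sums, of which 55.3% to 66.9% were whole multiples of it within 0.1 of a step, so no reads were recovered and no count test was run. Read totals are unknown, so no counting intervals are given. The limma script and the permutation test were tested on simulated data.

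The genes and lists were chosen with earlier results of these data known. The genes named are the 9 members, the partner isoforms PFKL, PFKP, PYGL, PYGB, PGAM1, CKB and ENO2, at most 6 passing pathway genes with the smallest p in each fit, and the 3 genes closest to ENO1 and LDHB among genes whose mean reached the median of all; others were named after their values were seen. Some genes these rules name, and 1 isoform pair that entered the adjustment over 3, are not reported here. Alternatives were median and upper quartile scaling, other added constants and filters, no trend, age as a term, males of each library name series alone, 14 libraries without the muscle-rich ones, and each library left out. Combinations with the 14 libraries, other than median scaling, were chosen after the data were seen.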

Additional observations from a re-analysis of the deposited data

Results flagged for a closer look

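Within each sex, 21 sets, each of 8 females or 9 males, were searched for a library whose gap to its neighbour was large against its set's range. In 7 of them 1 library stood apart, male 6 each time. Chance gives about 5% of sets. Male 6 was among the libraries picked for their muscle genes and the sets share libraries, so nothing is read from this number. Among the 9 males, male 6 was the highest in ENO3 at 13.25 (the next male was at 2.53), in ALDOA at 13.29 (next 8.39) and in CKM at 14.22 (next 3.49), all as log2(signal + 1). It was the lowest in ENO1 at 7.30 (next 8.19) and in LDHB at 6.54 (next 7.87). It was also the highest in the log2 ratios of ENO3 to ENO1 at 5.95 (next -5.93) and CKM to CKB at 9.79 (next -4.04). Female 1 and female 2 are alike in these genes, so neither stood apart alone.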

How the results depend on the processing

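No paired analysis was possible because the labels give no replicate numbers shared by the sexes. The LDHA to LDHB ratio was not run for want of a row named LDHA, nor were the ratios with PFKM, PYGM and PGAM2 between the sexes, whose genes had values in females only. With a minimum signal of 10, ENO3 and CKM were not tested.

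The count of genes passing between the sexes was 0 of 5 with every library left out of the 17 in turn. In those fits 658 to 2334 of all 9415 genes passed. It was 1 over 14 libraries with median scaling and 1 with upper quartile scaling, beside 2796 and 2777 of all genes. With each of the 14 left out it was 0 to 1, beside 3087 to 4011 of all genes. With age as a term 1 of 9415 genes passed, none of these 5. The log2 differences turned to -9.05 (ENO3, SE 4.84), -4.29 (ALDOA, SE 2.47) and -9.99 (CKM, SE 5.11). That of ENO1 turned to 0.62 (SE 0.74) and that of LDHB to 0.80 (SE 0.76). Over 14 libraries with age, ENO3 was at -0.15 (SE 0.98), ALDOA at -0.067 (SE 0.55) and CKM at -0.97 (SE 1.31). The interval of each of these values included 0. Female and male ages did not overlap, so the fits with age extrapolate and no size of a sex difference is read from them. LDHB turned to 0.23 with median scaling, 0.18 with upper quartile scaling and 0.10 against the males of the second series. Over 14 libraries LDHB was at 0.22 with median and 0.20 with upper quartile scaling, and ENO1 at 0.12 and 0.10. ALDOA turned over the 14 to -0.00027 and, against the males of the second series, -0.10. CKM turned to -0.14 over the 14, -0.16 against the first series and -0.095 against the second. Leaving each library out in turn gave, over the 17 and then the 14, 0.59 to 3.11 and 0.03 to 0.49 for ENO3, -0.69 to -0.38 and -0.50 to -0.25 for ENO1, -0.36 to -0.07 and -0.39 to -0.08 for LDHB, 0.23 to 1.47 and -0.087 to 0.057 for ALDOA, and 0.26 to 2.89 and -0.51 to 0.27 for CKM.

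The CKM to CKB difference turned from 2.15 to -0.53 over 14 libraries, -0.56 against the first series and -0.48 against the second. Leaving out each library gave 0.97 to 3.78 and 0.50 to 0.76 for ENO3 to ENO1, and 0.23 to 3.76 and -0.75 to -0.29 for CKM to CKB. The cause of these shifts was not tested. Depth limits the low muscle genes in the 14 libraries: CKM in female 6 was about 1 step.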
